A study of Homo sapiens with 8 samples.

Results

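The loss of ZRSR2 was examined within experiment 2, in 4 of the 8 RNA sequencing libraries of the study. These 4 libraries were taken by their labels: 2 came from SET-2 cells given guide RNA 1 or 2 against ZRSR2 (knockout) and 2 from SET-2 cells given non-targeting guide 1 or 2 (control). SET-2 is a human megakaryoblastic cell line, derived from essential thrombocythemia that had turned into leukemia, and it carries an activating JAK2 mutation that every group shares. Guides were delivered with a lentiviral vector that also expresses GFP (PLKO5 GFP). The labels do not describe single clones. The protocol gives RNA extraction at day 20 after transduction for biological replicate 1 and at day 25 for replicate 2, and reading experiment 2 as replicate 2 is an assumption. The other 4 libraries, experiment 1, used the same 4 guides and serve below as libraries that share no RNA with experiment 2. The 2 libraries of a group carry different guides, and nothing else in the labels says how their cultures were kept apart. The p-values of the fits below therefore measure only the spread between libraries of a group, which may be partly technical. Unless experiment 2 alone is named, that spread was estimated over all 8 libraries, so experiment 1 libraries entered it too.

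ZRSR2 encodes a protein of the spliceosome that helps to recognise the end of minor, U12-type introns, a small class of introns spliced by their own machinery. Mutations of ZRSR2 that abolish its function occur in myeloid neoplasms. A gene with a poorly spliced minor intron can keep the same count, because counts per gene do not separate spliced from unspliced reads.

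Both guides match coding sequence of ZRSR2 on chromosome X, and they are shown because every knockout value below rests on one of them. Guide 1 matched exon 1 of 11, at chrX:15790515-15790534 on GRCh38 in the GENCODE 29 annotation, and ended 2 bases before that exon's end. Guide 2 matched exon 8 of 11, at chrX:15815821-15815840, and is printed with its PAM, the bases Cas9 needs beside its target, in capitals. The 2 non-targeting guides matched the transcripts of 0 genes. Another ZRSR2 guide of the study design was not analysed here.
ZRSR2 guide 1: tgacgtttcccgagaaacca
ZRSR2 guide 2: acagttcctagacttctatgAGG
Non-targeting guide 1: gacggaggctaagcgtcgcaa
Non-targeting guide 2: gcgcttccgcggcccgttcaa

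The deposited values are expected counts per gene, between 36544665 and 71521173 per experiment 2 library, the highest total being that of the control with guide 1. Levels are given as CPM, counts per 1000000 counts of a library after TMM scaling, and they compare 1 gene between libraries, not genes with each other. A gene count of 3, used as the floor of detection, corresponds to 0.0428 to 0.0824 CPM. The 2 controls differed more from each other than any other pair of the 4 libraries, by a chi-square of their gene counts over its degrees of freedom, which was 63.1 between the controls, 25 between the knockout libraries and 24.5 to 45.4 for the mixed pairs. Markers of megakaryocyte and erythroid cells were present, together with some of monocytes: summed over 28 megakaryocyte genes the level was 5050 to 5800 CPM in knockout and 5570 to 6130 CPM in control, with GP1BB at 0, PF4 at 1.1 to 1.32 CPM and PPBP under 1 CPM. The sum over 30 erythroid genes was 5910 to 5960 CPM in knockout and 6520 to 6910 CPM in control. Granulocyte and monocyte genes summed to 1030 to 1100 CPM in knockout and 1230 to 1260 CPM in control, with CD68 at 457 to 639 CPM, LYZ at 206 to 267 CPM and ITGAM at 180 to 230 CPM. Of 20 granulocyte and monocyte genes, 12 were under 1 CPM and FCN1 was at 0. Of 16 lymphoid genes, 9 were under 1 CPM, and CD3G, MS4A1 and LCK were at 0, while CD4 stood at 277 to 340 CPM.

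ZRSR2 mRNA was lower with both guides. It stood at 28.3 CPM with guide 1 and 18.7 CPM with guide 2, against 39.7 and 41.1 CPM in the controls. The knockout mean of 23.5 ± 6.81 CPM (SD, n = 2) was 58.1% of the control mean of 40.4 ± 0.995 CPM (SD, n = 2). Guide 1 left 70.1% and guide 2 left 46.2% of the control mean, so the cells with guide 2 had the lower level. The groups did not overlap, and an exact two-sided permutation test gave p = 0.333, the smallest value that 6 splits of 4 libraries allow. In the fit over all genes its log2 fold change of −0.78 (SE 0.18) had an adjusted p of 0.0255 by DESeq2 and of 0.983 by edgeR's quasi-likelihood test. In experiment 1 the knockout level was 67.9% of control.

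Of 14898 genes tested, edgeR's quasi-likelihood test with Benjamini-Hochberg adjustment called 0 (0%) between knockout and control in experiment 2, while 685 (4.6%) had an unadjusted p under 0.05, 241 of them higher (1.62%) and 444 lower (2.98%). DESeq2, run as a second test on the same libraries, called 13 genes (0.0873%). TGM1 was the 1 higher call (0.00671%), and the 12 lower calls (0.0805%) were ZRSR2, TNS4, SLC2A1, NSG1, DUOX2, EPS8L3, B3GNT7, CD7, FAM178B, LOC284889, SPC24 and SULF2. Calls below are DESeq2's unless edgeR is named, and no other gene passed either test. Log2 fold changes and their SE are those of the edgeR fit, also where a DESeq2 adjusted p stands beside them. All 13 had both knockout libraries on one side of both controls, an arrangement that 1668 genes showed above the controls (11.2%) and 1836 below them (12.3%). The calls depended on single libraries: of the 13, DESeq2 still called 8 without the knockout library of guide 1, 0 without that of guide 2, 12 without the control of guide 1 and 5 without the control of guide 2. The 5 that remained without control guide 2 were TGM1, SLC2A1, DUOX2, SPC24 and FAM178B. Leaving out a library leaves a lone sample in its group, which is then assumed to vary like the other groups.

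TGM1, which encodes a transglutaminase that cross-links proteins of the skin's cornified envelope, was higher with both guides. Its level was 4.82 CPM with guide 1 and 11.4 CPM with guide 2, against 2.54 and 1.73 CPM in the controls, from 214, 487, 178 and 63 counts. The guide with the lower ZRSR2 level had the higher TGM1 level. The difference was 1.86 on the log2 scale (SE 0.39), and DESeq2 gave an adjusted p of 0.00124 where edgeR gave 0.766. In experiment 1 the difference was 1.84 (SE 0.44), and TGM1 was among the 5 genes (0.0336%) that DESeq2 called there, at an adjusted p of 0.00471.

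TNS4 encodes a tensin, a protein that links integrins at cell adhesions to signalling. It was at 32.1 and 30.7 CPM in knockout and at 50 and 80.6 CPM in control. The knockout difference was −1.05 on the log2 scale (SE 0.23), with a DESeq2 adjusted p of 0.00613, and the controls differed from each other by more than the knockout libraries did. In experiment 1 the knockout difference was −1.14 (SE 0.27), with a DESeq2 adjusted p of 0.00522. The levels themselves were lower there, at 12.2 and 7.06 CPM in knockout and 20.8 and 21 CPM in control.

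SLC2A1 encodes the glucose transporter GLUT1, which brings glucose into most blood cells. Knockout libraries held 638 and 574 CPM and controls 851 and 1040 CPM. The knockout difference was −0.64 on the log2 scale (SE 0.12), with a DESeq2 adjusted p of 0.00346. The 2 knockout values lay closer to each other than the 2 controls did. The log2 fold change in experiment 1 was −0.23 (SE 0.12) without a call, from 354 and 388 CPM against 454 and 419 CPM. The difference of the effects between the experiments had an unadjusted edgeR p of 0.0286 and an adjusted p of 1.

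NSG1, a protein of vesicles that recycle receptors in neurons, was at 24.2 and 19.6 CPM in knockout and at 35.7 and 55.6 CPM in control. The knockout difference was −1.05 on the log2 scale (SE 0.21), with a DESeq2 adjusted p of 0.00365. In experiment 1 NSG1 was far less abundant, at 2.05 and 2.9 CPM against 3.56 and 2.84 CPM, and the groups overlapped. The gene lies on the opposite strand to STX18 in part, and whether the counting used strand is not given in the sources used here.

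DUOX2, an oxidase that releases hydrogen peroxide at the surface of thyroid and gut cells, was at 14.3 and 15.3 CPM in knockout and at 26.1 and 24.5 CPM in control. The 2 libraries of each group lay close together, and every control exceeded every knockout library by at least 1.5-fold. The knockout difference was −0.78 on the log2 scale (SE 0.15), with a DESeq2 adjusted p of 0.00613. DUOXA2, the maturation factor that brings DUOX2 to the cell surface, was at 4.33 and 2.93 CPM against 7.34 and 5.91 CPM. Its log2 fold change of −0.89 (SE 0.21) passed neither test, with adjusted p of 0.999 by edgeR and 0.435 by DESeq2. The 2 genes overlap on opposite strands, so without strand their reads cannot be told apart in the overlap. In experiment 1 the DUOX2 log2 fold change was 0.08 (SE 0.15), with 18.4 and 18.2 CPM in knockout and 19.9 and 14.8 CPM in control. The difference between the experiments had an unadjusted edgeR p of 0.00202 and an adjusted p of 1.

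EPS8L3, a relative of the growth factor receptor substrate EPS8, was at 12.6 and 9.14 CPM in knockout and at 20.7 and 24.8 CPM in control. The knockout difference was −1.06 on the log2 scale (SE 0.19), with a DESeq2 adjusted p of 0.00613, and here too each control was at least 1.5-fold above each knockout library. Levels in experiment 1 were 0.927 and 1.46 CPM against 2.07 and 1.4 CPM, with overlap.

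**Figure D1:**
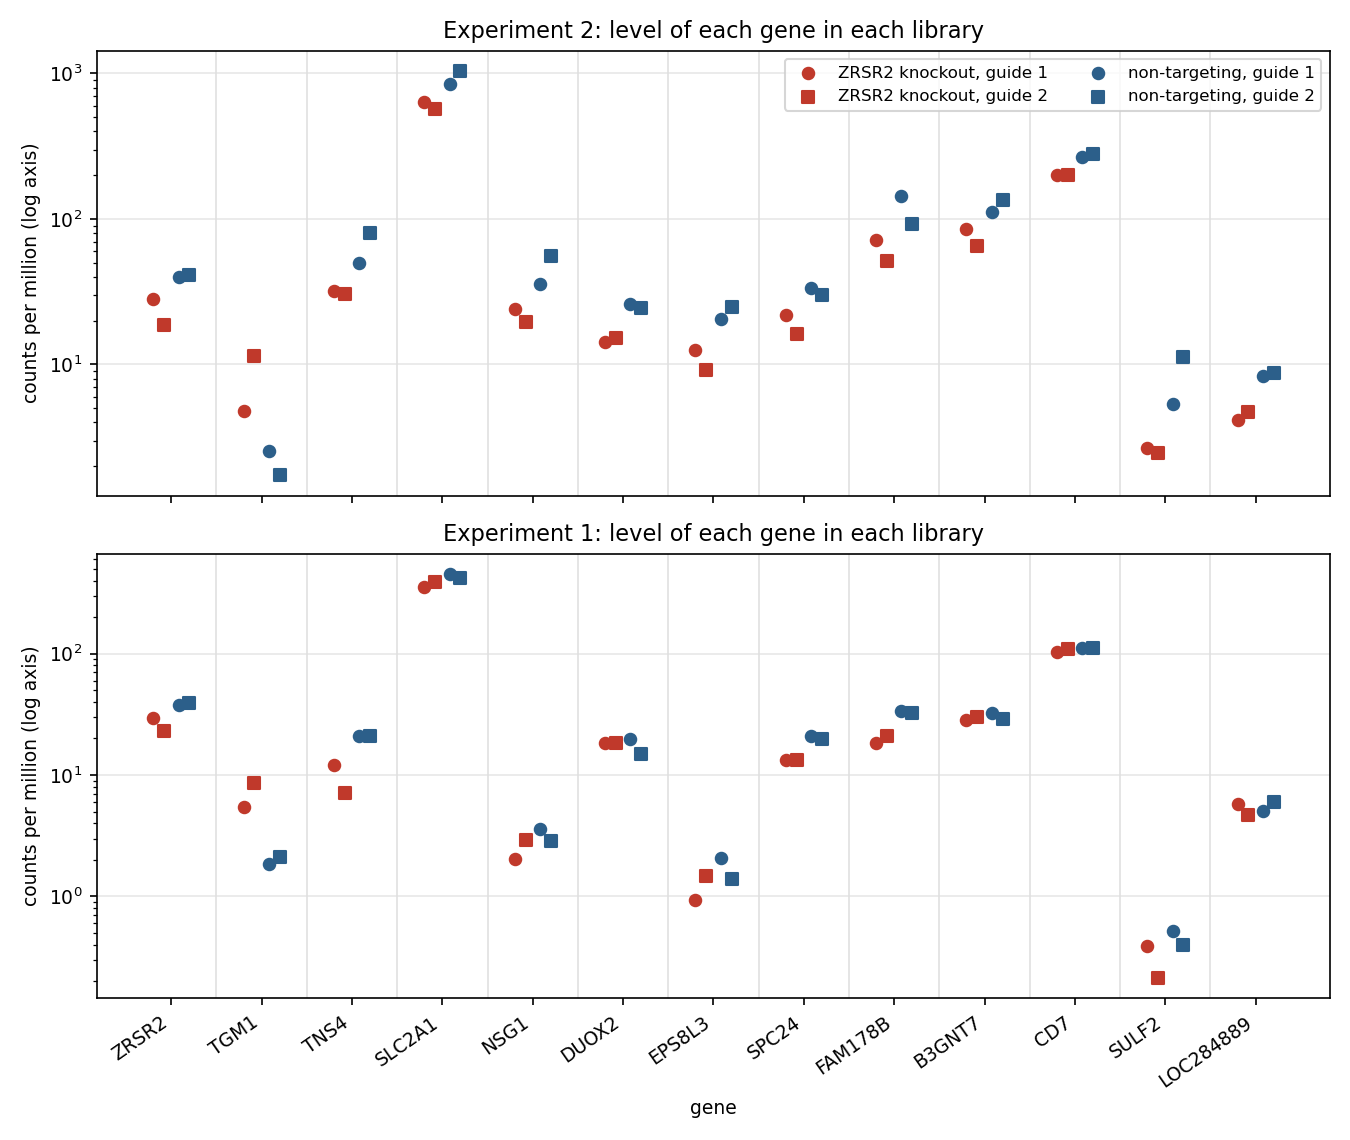
Levels of the 13 called genes in each library, in CPM on a log axis, for experiment 2 (upper panel) and experiment 1 (lower panel). Red points are knockout and blue points control, circles guide 1 and squares guide 2. In experiment 2 the red and blue points do not overlap for any of the 13 genes, with TGM1 alone higher in knockout, whereas NSG1, DUOX2, EPS8L3, B3GNT7 and LOC284889 overlap in experiment 1.

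The remaining lower calls included surface and matrix genes and a kinetochore gene. SPC24, a subunit of the complex that ties kinetochores to microtubules, was at 22 and 16.1 CPM against 33.5 and 30.1 CPM. The knockout difference was −0.74 on the log2 scale (SE 0.15), with a DESeq2 adjusted p of 0.0137, and its value in experiment 1 was −0.64 (SE 0.16). Without a stated strand setting, reads of SPC24 could not be told apart from those of an overlapping gene in the stretch they share. The same holds for SLC2A1, EPS8L3 and SULF2, which also overlap genes on the opposite strand. FAM178B was at 72.2 and 51.1 CPM against 143 and 91.8 CPM, a log2 difference of −0.93 (SE 0.20), with a DESeq2 adjusted p of 0.00534. Its experiment 1 value was −0.76 (SE 0.22), again with no overlap between the groups.

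B3GNT7, a sugar transferase that builds the chains of keratan sulfate, was at 85.9 and 65.1 CPM against 112 and 136 CPM, a difference of −0.71 on the log2 scale (SE 0.14). CD7, a surface antigen of T cells and of some immature myeloid cells, was at 200 and 199 CPM against 266 and 279 CPM, a log2 difference of −0.45 (SE 0.09). For CD7 the libraries of each group were nearly equal. Experiment 1 gave −0.08 (SE 0.15) for B3GNT7 and −0.06 (SE 0.09) for CD7. SULF2, an enzyme that removes sulfate from heparan sulfate outside the cell, was at 2.66 and 2.46 CPM against 5.32 and 11.2 CPM, or −1.63 on the log2 scale (SE 0.33), with control guide 2 at the top. LOC284889, annotated as MIF-AS1, was at 4.17 and 4.71 CPM against 8.31 and 8.68 CPM, a log2 difference of −0.93 (SE 0.17). It runs antisense to MIF, a cytokine gene whose own levels of 306 and 377 CPM against 376 and 421 CPM overlapped at the knockout library of guide 2. With no strand setting given, reads of MIF and LOC284889 cannot be told apart where they overlap. The DESeq2 adjusted p of B3GNT7, CD7, SULF2 and LOC284889 ran from 0.00613 to 0.0306, and the edgeR adjusted p of all 13 called genes from 0.690 to 0.983.

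Among genes with no call, the lower genes of smallest unadjusted p were H19 and CERCAM. H19, an imprinted noncoding RNA, was at 36.7 and 39.2 CPM in knockout and at 64.1 and 146 CPM in control, a log2 fold change of −1.46 (SE 0.29). The 2 knockout libraries were nearly equal and the 2 controls were not. CERCAM had a log2 fold change of −0.48 (SE 0.10).

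Below TGM1, the higher genes of smallest unadjusted p had no call. C17orf51 was at 2.05 and 3.84 CPM against 1.34 and 1.07 CPM, a log2 difference of 1.24 (SE 0.32), and KIAA0556 was at 45.6 and 61.9 CPM against 39.1 and 33.1 CPM, a value of 0.57 (SE 0.15). H2AFY2, a macroH2A histone variant, had a value of 0.60 (SE 0.16). HSPH1, a chaperone of the HSP110 family, was at 87.1 and 78.5 CPM against 67.8 and 58.5 CPM, a value of 0.39 (SE 0.10). BAZ1A, a subunit of a chromatin remodeller, was at 93.3 and 88.7 CPM against 71.5 and 72.8 CPM, a value of 0.34 (SE 0.09). AHCTF1, a nuclear pore protein that shares sequence with a pseudogene copy, and DDX20, a helicase of the complex that assembles spliceosomal particles, had values of 0.41 (SE 0.11) and 0.38 (SE 0.11). CUEDC1, KIAA0020, ZNF322 and MTHFD2L completed the 12 higher genes of smallest unadjusted p, with values between 0.34 and 0.73.

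Larger differences in both guides were few. In 39 genes (0.262%) each knockout library was at least 1.5-fold above each control, and in 29 genes (0.195%) at least 1.5-fold below. Both sets included named genes: TGM1, C17orf51 and MTHFD2L above, and TNS4, DUOX2, EPS8L3, SULF2, H19 and LOC284889 below.

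Set beside experiment 1, whose libraries are separate, most called genes kept their direction, and most had a smaller difference there. Of the 13 genes, 12 had the same sign in experiment 1, and 8 had both knockout libraries on the same side of both controls there, where 18.5% of all genes lay above and 17.9% below. For SULF2 and CD7, which are among the 8, the groups nearly touched. SULF2 was at 0.393 and 0.212 CPM against 0.518 and 0.396 CPM there, and CD7 at 103 and 110 CPM against 112 and 111 CPM. The exception in sign was DUOX2. In 12 of the 13 the difference was smaller in experiment 1, with TNS4 the exception. It was also smaller in 8530 of all 14898 genes, and in 2894 of the 3504 genes without overlap in experiment 2. The 13 were chosen on their experiment 2 values, so this count cannot tell a smaller effect from that choice. The fit that called them also took its spread in part from experiment 1, so the calls were not made independently of it. With the experiment 2 libraries alone DESeq2 called 5 of them: EPS8L3, NSG1, SULF2, TGM1 and TNS4. Over all genes tested 54.3% had the same sign, and the 2 sets of log2 fold changes correlated across genes at a Pearson r of 0.169 (n = 14898), a description over genes that are not independent replicates. The 12 lower and 12 higher genes of smallest p matched in sign for 11 and 9. A test of the difference between the experiments called 0 genes by edgeR (0%, with 222 at an unadjusted p under 0.05, 1.49%) and 0 by DESeq2.

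**Figure D2:**
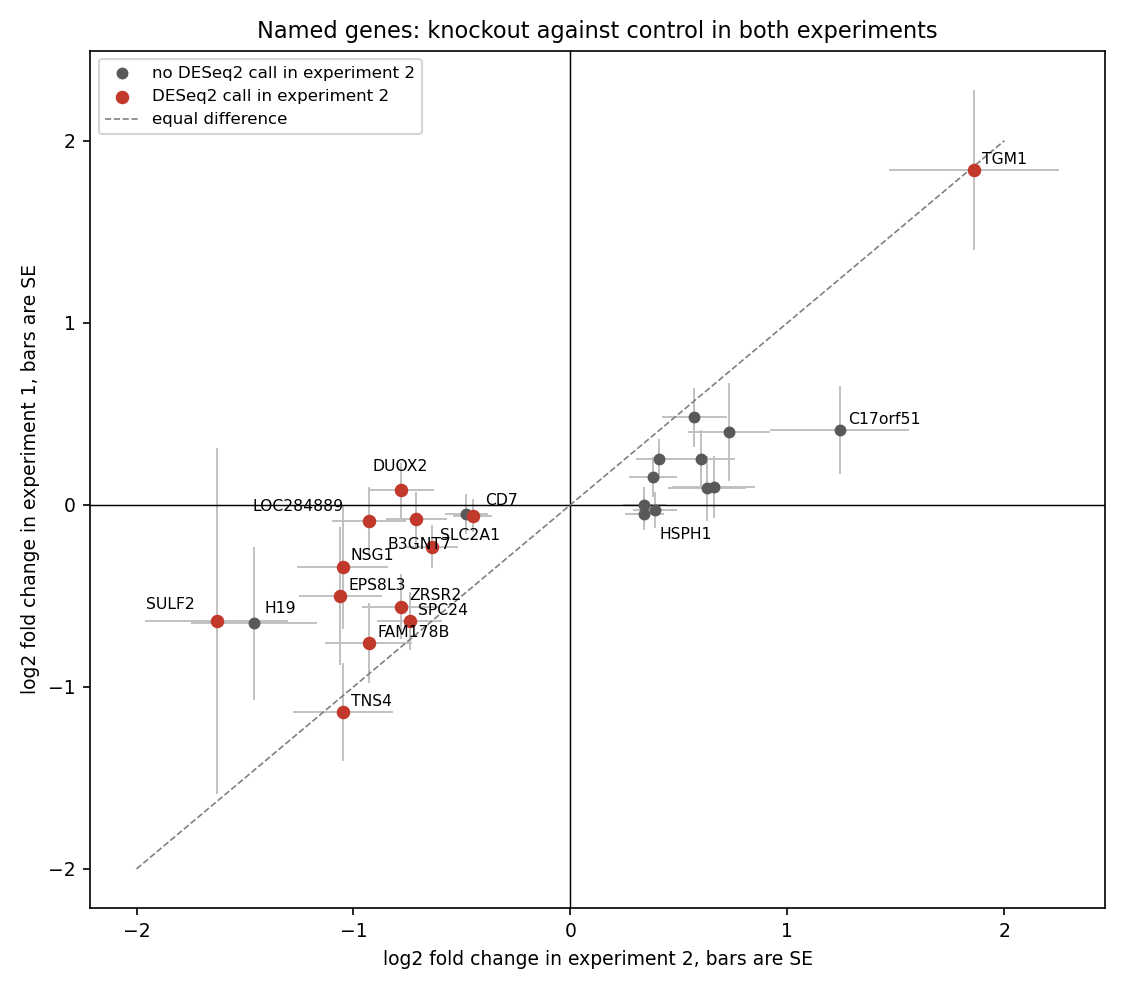
Log2 fold change of knockout against control in experiment 2 (horizontal axis) and experiment 1 (vertical axis) for ZRSR2, the called genes and the 12 genes of smallest p in each direction, with bars for the SE of the fit. Red marks DESeq2 calls in experiment 2 and the dashed line marks equal values. TGM1 (1.86 and 1.84) and TNS4 (−1.05 and −1.14) lie on the line, while DUOX2 (−0.78 and 0.08) and CD7 (−0.45 and −0.06) lie near 0 on the vertical axis.

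Glycolysis turns glucose into pyruvate, and its genes, with others for oxygen-independent metabolism, are switched on by HIF transcription factors when oxygen is low. One form of the core that HIF binds is ACGTG. In the 250 bases before the transcription start, on both strands, this core was found in 14 of the 31 listed glycolysis and hypoxia genes that had a RefSeq promoter (45.2%), in 22.9% of the tested genes and in 18.7% of all promoters of the same length. With GCGTG counted as well the shares were 64.5% of these genes and 56.3% of the tested genes. Among the 16 listed members with a promoter that lay below both controls, the shares were 43.8% for ACGTG and 50% with GCGTG counted as well. The search used a single start per gene, which need not be its main start. A match of letters is a description and not a bound site. The promoters of GAPDH and ALDOC, members whose knockout libraries were both below both controls, are printed with the core or its reverse, CACGT, in capitals. The run CACGTG holds both.
GAPDH promoter, GRCh38.p14 chr12:6535014-6535263, plus strand: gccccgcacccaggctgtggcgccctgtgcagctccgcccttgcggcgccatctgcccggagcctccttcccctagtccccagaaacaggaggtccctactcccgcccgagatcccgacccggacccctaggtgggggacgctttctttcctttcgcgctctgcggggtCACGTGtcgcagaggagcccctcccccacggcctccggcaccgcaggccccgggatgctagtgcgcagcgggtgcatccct
ALDOC promoter, GRCh38.p14 chr17:28576896-28577145, minus strand: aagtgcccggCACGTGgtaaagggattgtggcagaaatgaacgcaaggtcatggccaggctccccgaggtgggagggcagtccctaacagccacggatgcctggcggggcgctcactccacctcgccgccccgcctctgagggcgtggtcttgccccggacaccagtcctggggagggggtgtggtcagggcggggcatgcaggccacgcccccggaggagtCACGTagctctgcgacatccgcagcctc

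All 36 listed glycolysis and hypoxia genes had a lower fitted level in knockout than in control in experiment 2, but this rested largely on 1 control library. The median log2 fold change was −0.402, against 0.002 over all genes tested, of which 49.5% were lower. In 18 of the 36 (50%, against 12.3% of all genes) both knockout libraries were below both controls, and 17 had an unadjusted edgeR p under 0.05, where 2.98% of all genes were lower at that p. SLC2A1 was the 1 member with a DESeq2 call. Without control guide 1, edgeR called 23 members and DESeq2 26, and without control guide 2 they called 0 and 1. The fit of the experiment 2 libraries alone with the guide number as a block called 9. The control with guide 2 was above the control with guide 1 in 33 of the 36, by a median log2 difference of 0.718. Summed over the list, the level was 17400 and 18600 CPM in knockout, 19800 CPM in control guide 1 and 28500 CPM in control guide 2. Against control guide 2 the medians were −0.787 and −0.685 for knockout guides 1 and 2, and against control guide 1 they were −0.149 and −0.038. Without control guide 2, 21 of 36 genes were lower and the median was −0.078. Without control guide 1, all 36 were lower and the median was −0.738.

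SLC2A1 and DDIT4 were the members with both knockout libraries furthest below control guide 1. DDIT4, a stress-induced inhibitor of mTOR signalling, was at 196 and 249 CPM against 314 and 273 CPM, and its log2 fold change of −0.40 (SE 0.15) had the opposite sign in experiment 1, at 0.45. The glycolytic enzyme GAPDH was at 3080 and 3530 CPM against 3640 and 5870 CPM for a log2 difference of −0.52 (SE 0.18). The aldolases were similar: ALDOA stood at 1570 and 1850 CPM against 1970 and 2830 CPM, and ALDOC at 113 and 140 CPM against 146 and 285 CPM. ENO1, an enolase, was at 3500 and 3440 CPM against 3890 and 5080 CPM. NDRG1, a hypoxia-induced gene, was at 54.9 and 77 CPM against 80 and 185 CPM, and VEGFA, the vascular growth factor, at 136 and 169 CPM against 183 and 270 CPM. In each of these genes the 2 knockout libraries lay below control guide 1, and control guide 2 lay above it except for DDIT4. Besides SLC2A1, none of them had a call.

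In other members the difference in experiment 2 rested on control guide 2 alone. SLC2A3, a second glucose transporter, was at 161 and 212 CPM against 177 and 463 CPM. P4HA1, a collagen prolyl hydroxylase subunit, was at 174 and 166 CPM against 171 and 418 CPM. PFKFB4, which sets the level of a glycolysis activator, was at 87.9 and 109 CPM against 98.2 and 251 CPM, and BNIP3, a mitophagy receptor, at 76.4 and 102 CPM against 86.6 and 211 CPM. Knockout and control guide 1 overlapped in all of them, and without control guide 2 their log2 fold changes were 0.09, 0.02, 0.03 and 0.06. In experiment 1 both knockout libraries were below both controls in each of them, as in 17.9% of all genes. Their log2 fold changes there were −0.32 (SE 0.33), −0.69 (SE 0.32), −0.94 (SE 0.36) and −1.14 (SE 0.37), without a call.

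In experiment 1 the same list had a median of −0.233, with 33 of 36 lower and 26 with both knockout libraries below both controls, against 17.9% of all genes. There the controls differed in the other direction, by a median of −0.116 for guide 2 minus guide 1. The summed level was 14600 and 13000 CPM in knockout and 15900 and 15000 CPM in control. These genes and the list were picked with earlier results of these data known, so the count is a description.

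**Figure D3:**
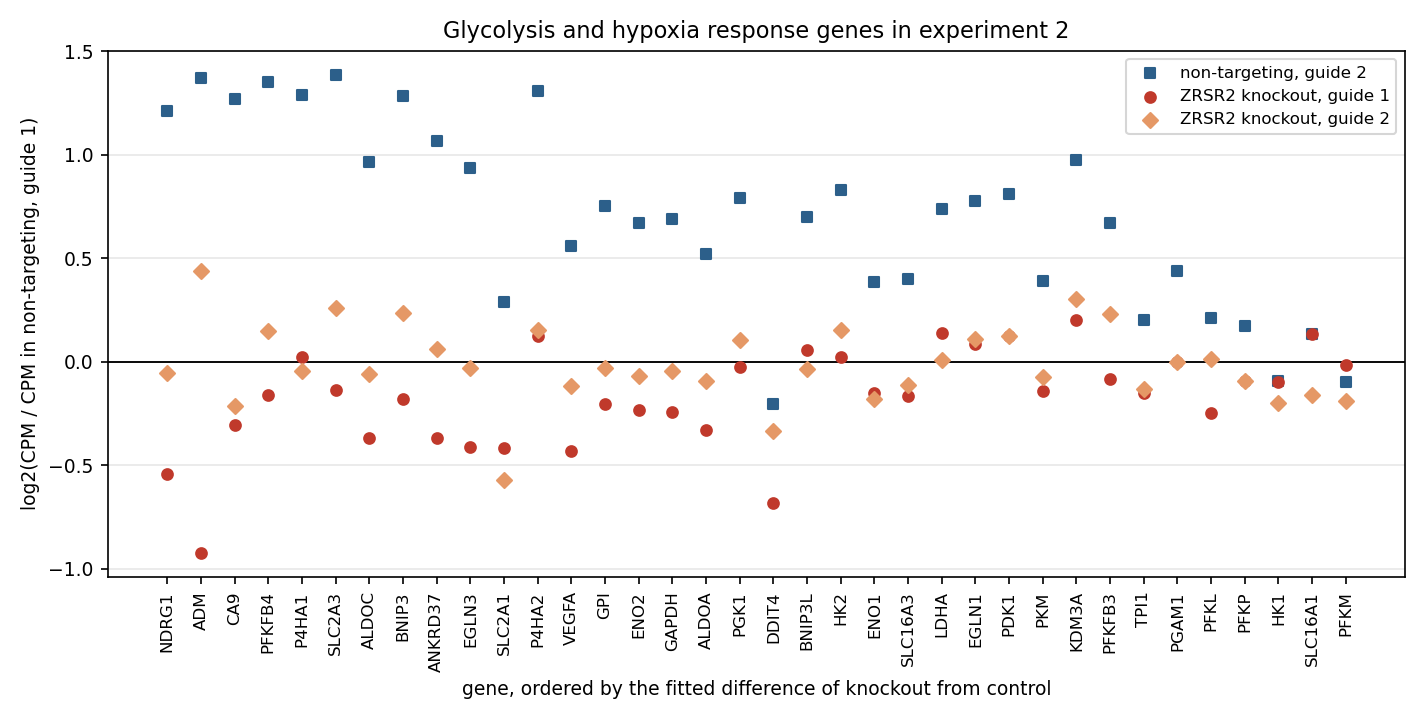
Level of each of the 36 glycolysis and hypoxia genes in experiment 2, as log2 of its CPM over its CPM in control guide 1 (0 line), for control guide 2 (blue squares), knockout guide 1 (red circles) and knockout guide 2 (orange diamonds). The blue squares lie above 0 for 33 genes, with a median of 0.718, while the knockout points scatter around and below 0. SLC2A1 and DDIT4 are the genes where both knockout points lie well below the 0 line.

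Interferon-stimulated genes are induced through factors that include STAT2 and IRF9, which bind repeats written here as GAAA, 2 bases of any kind and GAAA again. Of the 21 listed genes with a RefSeq promoter, 13 (61.9%) held this motif on either strand in the 250 bases before the start, against 2.52% of tested genes and 3.07% of all promoters. The promoters of OAS3 and IFIT3, which were above both controls in both knockout libraries, are printed with the motif or its reverse in capitals.
OAS3 promoter, GRCh38.p14 chr12:112938224-112938473, plus strand: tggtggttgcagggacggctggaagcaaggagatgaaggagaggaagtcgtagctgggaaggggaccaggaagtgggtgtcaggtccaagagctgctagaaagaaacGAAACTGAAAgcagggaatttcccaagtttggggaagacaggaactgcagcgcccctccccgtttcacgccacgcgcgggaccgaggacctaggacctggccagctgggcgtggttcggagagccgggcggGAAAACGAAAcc
IFIT3 promoter, GRCh38.p14 chr10:89327747-89327996, plus strand: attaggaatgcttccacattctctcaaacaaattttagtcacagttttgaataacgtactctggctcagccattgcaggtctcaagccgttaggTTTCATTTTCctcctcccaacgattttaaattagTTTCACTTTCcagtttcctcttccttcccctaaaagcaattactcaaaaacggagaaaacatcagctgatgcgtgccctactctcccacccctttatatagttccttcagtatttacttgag

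The fitted levels of 25 of 29 interferon-stimulated genes were higher in knockout, with a median log2 fold change of 0.164 and no call. In 11 of them (37.9%, against 11.2% of all genes) both knockout libraries were above both controls, and in 0 both were below. OAS3, a sensor of double-stranded RNA, was at 58.3 and 66.4 CPM against 52.9 and 47.7 CPM, or 0.31 on the log2 scale (SE 0.11) with an edgeR adjusted p of 0.999. OAS2 was at 5.05 and 4.87 CPM against 3.58 and 3.79 CPM and OASL at 5.57 and 5.69 CPM against 4.63 and 3.19 CPM. IFI44L was at 2.28 CPM with guide 1 and 5.34 CPM with guide 2, against 2.07 and 2.09 CPM, so that guide 2 alone stood out. IFIT3, a further member of the list, was at 49.6 and 50.2 CPM against 44 and 42.3 CPM. In experiment 1 the list's median was 0.063, with 24 of 29 higher, and the member that stood out there was IFIT2, at a log2 fold change of 0.90 (SE 0.15) against 0.16 (SE 0.14) in experiment 2. Without the knockout library of guide 2, 20 of the 29 were higher with a median of 0.080.

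Erythroid genes were lower in 28 of 30, with a median log2 fold change of −0.209, and 7 (23.3%, against 12.3% of all genes) had both knockout libraries below both controls. SLC4A1, the anion exchanger of the red cell membrane, was at 40.8 and 40.9 CPM against 60.3 and 54.6 CPM, a log2 difference of −0.49 (SE 0.11) without a call. HBG2, a fetal globin, was at 950 and 853 CPM against 1370 and 946 CPM, where knockout guide 1 and control guide 2 were nearly equal. HBE1, the embryonic globin, was at 6.87 and 4.19 CPM against 11.5 and 6.32 CPM. The globin genes are near-identical copies in part, so their separation depends on how RSEM assigned shared reads. Fewer cells of a state and less RNA per cell cannot be told apart in bulk RNA. The median in experiment 1 was −0.044, and leaving out control guide 1 lowered the count to 19 of 30.

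The direction of the megakaryocyte genes turned with control guide 2. In experiment 2, 18 of 26 tested were lower with a median of −0.062, and 7 lay below both controls (26.9%, against 12.3% of all genes) and 1 above, whereas 18 were higher with a median of 0.264 without control guide 2, in which 24 of 26 were above control guide 1. GP9, a subunit of the platelet receptor for von Willebrand factor, was at 27 and 25.4 CPM against 32.9 and 34.9 CPM for a log2 difference of −0.37 (SE 0.11). ITGA2B, the platelet integrin subunit, was at 2180 and 2510 CPM against 2570 and 2710 CPM. GP9 and ITGA2B were below both controls in both knockout libraries, and neither had a call.

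Mitosis genes other than SPC24 differed little. With SPC24 counted in, the fitted level was lower for 32 of 36, the median was −0.100, and 9 (25%, against 12.3% of all genes) lay below both controls. PLK1, a mitotic kinase, was at 186 and 189 CPM against 220 and 214 CPM, or −0.21 on the log2 scale (SE 0.10), and KIF20A, a mitotic kinesin, at 53.9 and 55.6 CPM against 61.1 and 68.6 CPM. The direction of the list depended on 2 libraries: 19 of 36 were lower without knockout guide 2, with a median of −0.019, and 19 without control guide 2, with a median of −0.012.

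Of 40 listed epithelial barrier and surface genes 23 passed the count filter, and 15 of these were lower and 8 higher. The list includes TGM1, TNS4, DUOX2 and EPS8L3, which were known from earlier results, so its 4 calls are no evidence about epithelial genes as a class. ITGB4, an integrin of epithelial adhesion, was at 72.7 and 72.6 CPM against 91.1 and 89.8 CPM, a log2 difference of −0.32 (SE 0.10) without a call.

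Genes of the minor splicing pathway were about even in sign. Among 14 tested genes for the minor spliceosome, 9 were higher and 5 lower, with a median of 0.027 and ZRSR2 itself the 1 call. SNRNP48 was at 24.4 and 28.8 CPM against 19.2 and 24 CPM for a log2 difference of 0.31 (SE 0.14). Among 27 genes recalled to hold a minor intron, 13 were higher and 14 lower, with a median of −0.041 and no call. Of these 27, 7 lay below both controls (25.9%) and 6 above (22.2%), against 12.3% and 11.2% of all genes. An unadjusted edgeR p under 0.05 was found for 5 lower and 2 higher genes of the 27. Over all genes 2.98% were lower and 1.62% higher at that p. TMEM107, a protein of the ciliary base, was at 4.94 and 4.52 CPM against 7.34 and 10.9 CPM, or −0.91 on the log2 scale (SE 0.21), and its counts overlap the small nucleolar RNA gene SNORD118. GPAA1, a subunit of the enzyme that attaches GPI anchors, was at 66.6 and 59.9 CPM against 91.8 and 80.7 CPM, a value of −0.45 (SE 0.13). Both were also below both controls in experiment 1, at −0.61 (SE 0.29) and −0.39 (SE 0.13).

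Among 7 tested neuronal vesicle genes, 6 were lower, against 49.5% of all genes, and NSG1 was the 1 call, against 0.0873% of all genes. NSG1 was given beforehand, so its call is no evidence about these genes as a class. The lists described next had no call. Cholesterol synthesis genes were higher in 22 of 24 with a median of 0.076, and 5 were above both controls (20.8%, against 11.2% of all genes). In experiment 1 they were lower in 20 of 24. DNA replication genes were higher in 26 of 35, respiratory chain genes in 33 of 48 and cytosolic ribosomal protein genes in 40 of 76. Without control guide 2 these counts were 15 of 35, 22 of 48 and 32 of 76, with medians of −0.008, −0.011 and −0.020. Unfolded protein and ATF4 response genes were higher in 13 of 28 in experiment 2, with a median of −0.021, and in 26 of 28 in experiment 1, with a median of 0.180. JAK-STAT targets, induced by signalling through JAK2, were higher in 9 of 20 and ERK output genes in 9 of 21. Metallothionein genes were lower in 5 of 7 with a median of −0.301, and in 7 of 7 in experiment 1. Without control guide 2 the median was 0.083, with 3 of 7 lower.

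**Figure D4:**
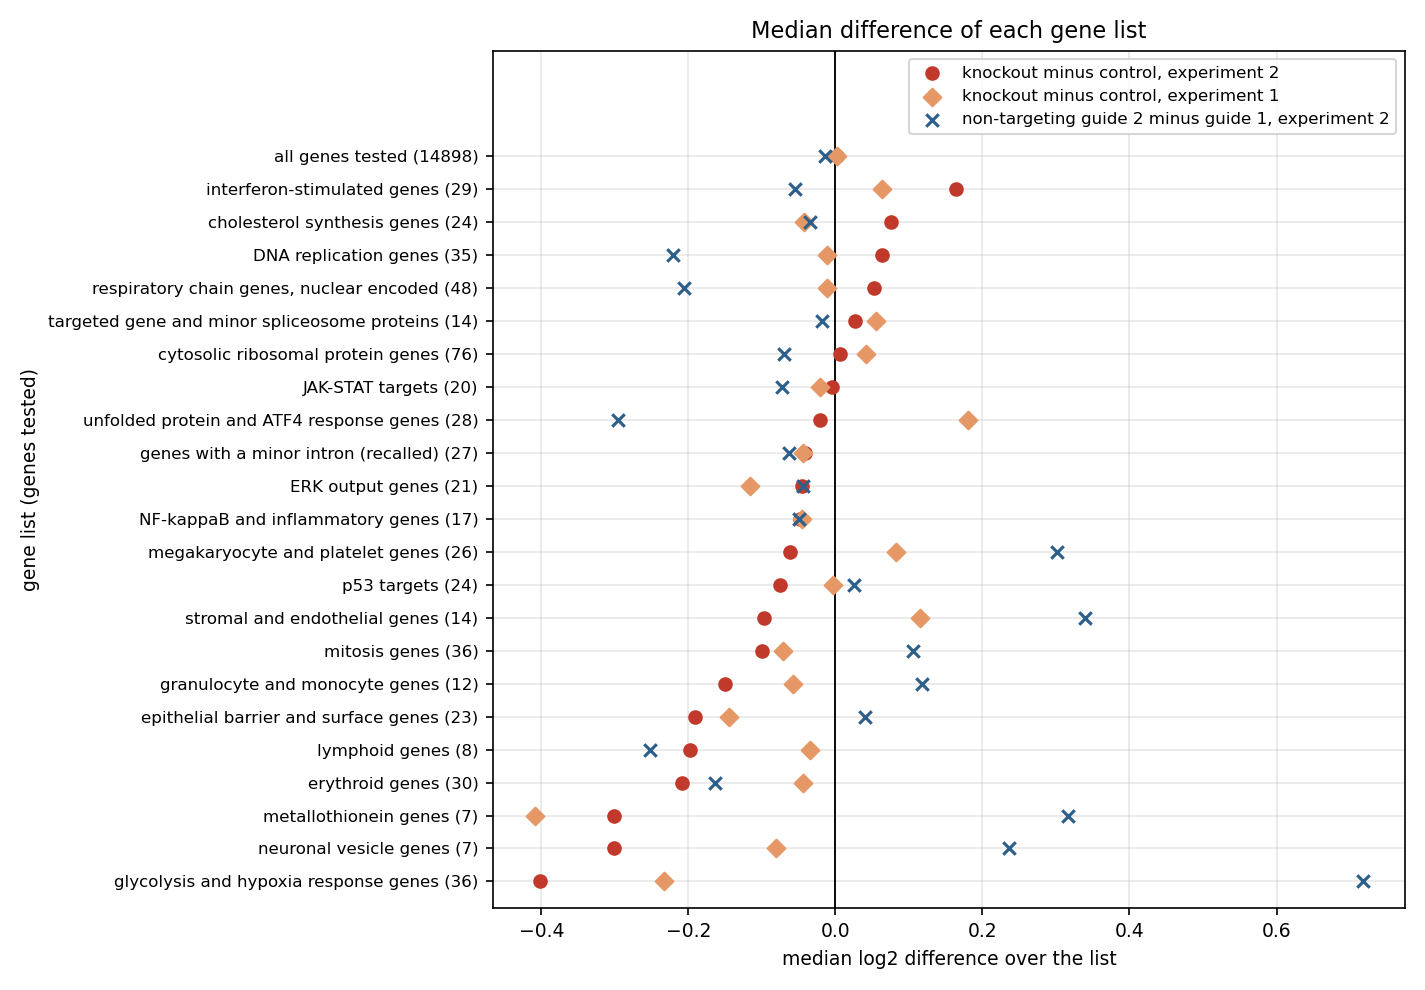
Median log2 difference of each gene list, with the number of genes tested in brackets, for knockout minus control in experiment 2 (red), knockout minus control in experiment 1 (orange) and control guide 2 minus control guide 1 in experiment 2 (blue crosses). The glycolysis and hypoxia list has the lowest red point (−0.402) and the highest blue cross (0.718), while the interferon-stimulated list has a red point of 0.164 and a cross of −0.055.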

How the data were processed

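Messenger RNA libraries from SET-2 cells were made with a Kapa mRNA kit from column-purified, DNase-treated RNA, per the labels' protocols. The authors deposited 1 table of RSEM expected counts per gene symbol, and per the submitters' processing notes cutadapt 1.11, RSEM 1.2.30 and hg19 were used. Aligner, annotation and strand setting are not given in the sources used here. The expected counts were already whole, so rounding changed 0 values. The table holds 25435 symbols, 5151 without a count, and 0 rows without a gene or columns of other samples.

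The test was edgeR 4.0.16 (R 4.3.3), a quasi-likelihood F test over 8 libraries in 4 cells of genotype by experiment, with TMM factors, filterByExpr on genotype, Benjamini-Hochberg adjustment and a threshold of 0.05. DESeq2 1.42.0 was the second test. Both were checked on simulated data in which every gene had the same biological variation. That check does not cover genes or libraries that vary more. The common biological coefficient of variation was 0.114. Alternatives changed the size factors, filter, tool, libraries and guide block, and leaving each experiment 2 library out of DESeq2 was chosen after seeing the data.

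The members and gene lists were chosen with earlier results of these data known. Named were ZRSR2, 6 genes given beforehand, up to 12 genes a direction by unadjusted p (at least 2 CPM, no overlap between groups), DESeq2 calls, and up to 4 genes of smallest p per list. A few genes that this rule names are not reported here. GAPDH, ALDOA, ALDOC, GPI, SLC2A3, P4HA1, PFKFB4, BNIP3, DDIT4, IFIT2, IFIT3, DUOXA2, ITGB4, MIF and PF4 were named after their values were seen. Promoters are from RefSeq GRCh38.p14, a single one per gene symbol, and guide positions from GENCODE 29. The floors cover counting error only. Each SE comes from the edgeR fit and includes the spread between libraries.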

Additional observations from a re-analysis of the deposited data

Results flagged for a closer look

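In 10 named genes both knockout libraries lay on one side of both controls in experiment 2 and on the other side in experiment 1. Over all genes tested, 3504 had no overlap between the groups in experiment 2, and 481 of these lay on the opposite side in experiment 1. The 10 genes are therefore listed as a description. None of these differences between the experiments passed edgeR's adjusted test. HSPH1 had a log2 fold change of 0.39 in experiment 2, with an unadjusted edgeR p of 0.0156 for the difference, and BAZ1A had 0.34, with 0.0122. GP9 had −0.37, with 0.02, PPBP, a platelet chemokine at under 1 CPM, had −0.79, with 0.018, and CD68, a lysosomal protein of macrophages, had −0.29, with 0.0132. DDIT4 had −0.40, against 0.45 in experiment 1. The collagen genes were at under 1 CPM in experiment 2 (COL3A1 at 2.29 to 3.14 CPM in experiment 1), COL3A1 at 1.40, with 0.0194, and COL1A1 at −0.79, with 0.141. ZMAT5, a protein of the minor spliceosome, had −0.12, with 0.201, and NDUFB3, of the respiratory chain, had 0.18, with 0.196.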

How the results depend on the processing

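Of 2975 alternatives over 143 results, 2731 left the result as reported, 128 passed the threshold where the reported value did not, 95 moved and 21 reversed. A count of called genes was taken as moved where it changed beyond a set ratio, or to or from 0. Other values were taken as moved where they changed by more than the spread. In experiment 2, edgeR called 0 genes under other size factors, other filters, its older quasi-likelihood version and the experiment 2 libraries alone. DESeq2 called 13 with all libraries and 5 with the experiment 2 libraries alone. Leaving out 1 library, edgeR called 0 to 188 (188 without control guide 1, 43 higher and 145 lower). DESeq2 then called 49 without knockout guide 1, 0 without knockout guide 2, 575 without control guide 1 and 17 without control guide 2. In experiment 1, DESeq2 called 5, edgeR 0 to 2 when 1 library was left out, and DESeq2 5, 5, 12 and 13 in the same 4 fits. For the difference between the experiments DESeq2 called 2, 0, 68 and 0. The cause of these shifts was not tested.

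Knockout and control libraries carry the same guide numbers, but no label says that these pair them. The deviations of same-numbered libraries correlated at 0.194 in experiment 2 and −0.031 in experiment 1. With the guide number as a replicate block edgeR called 0 genes over 8 libraries, with 620 at an unadjusted p under 0.05, and 35 with the experiment 2 libraries alone, where ZRSR2 stood at −0.81. DESeq2 gave ZRSR2 −0.79, with −1.12 without knockout guide 1 and −0.81 without control guide 1.

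Reversals came from leaving out 1 library. Edges of the range over single omissions in edgeR are given with the DESeq2 reversals after them. CCDC84 ran from −0.05 to 0.33 (DESeq2 −0.05), SPRY1 from −0.47 to 0.06 (0.03), CD247 from −1.11 to 0.52 (0.04 and 0.52), VIM from −0.53 to 0.06 (0.03) and MT1X from −0.79 to 0.10 (0.04 and 0.08). SLC2A3 ran from −1.31 to 0.09 (0.07), P4HA1 from −1.30 to 0.02, PFKFB4 from −1.35 to 0.03 (0.00) and BNIP3 from −1.25 to 0.06 (0.04), each positive without control guide 2. TRIB3 was −0.01 in DESeq2 without control guide 2. Levels under the floor of 3 counts, 0.0428 to 0.0824 CPM in experiment 2, could not be told from absence.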
